A study of Mus musculus with 12 samples.

Results

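The enzymes described here build, sulfate and trim heparan sulfate and chondroitin sulfate, the long sugar chains of proteoglycans. Members were chosen by gene symbol: 42 genes measured by 43 probe sets, of 909 named genes and 1246 probe sets in all. Of the symbols sought, Chst13, Chpf2, Dse and Hs3st4 matched no named probe set and were not analysed here. The arrays measured mouse (B6) samples in 5 groups: 4 non-wounded samples, 1 sample at 0 h after wounding, 2 at 30 min, 4 at 2 h and 1 at 4 h. The labels give neither age nor sex of the mice, and no genotype other than the B6 of the sample names. The study asked which keratinocyte genes respond early to a wound. Its plan was to take RNA from whole epidermis, whereas the labels call every sample DETC, the T cells that live among mouse keratinocytes.

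Both chains start on the same linker of xylose, galactose and glucuronic acid, attached to a serine of a core protein. A first N-acetylglucosamine then commits the chain to heparan sulfate, and a first N-acetylgalactosamine to chondroitin sulfate. Sulfate groups added along the chain create binding sites for growth factors, chemokines and morphogens. In skin these chains sit on keratinocyte surfaces and in the basement membrane.

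The values are log2 RMA values, a summary of the probes of each probe set after background correction and normalization. They compare samples for the same probe set, not levels between genes. The keratinocyte galectin Lgals7 lay between 11.83 and 12.36 in the 4 non-wounded samples and between 11.26 and 12.29 at 2 h. Of 14 T cell markers 6 were measured: Cd2, Klrk1, Cd69, Il2rb, Il2rg and Itgae. Their mean log2 value per sample was 4.33 to 4.75 at 2 h and 4.34 to 4.5045 in non-wounded samples. In non-wounded samples the receptor subunit Il2rg lay between 6.30 and 6.95 and the activating receptor Klrk1 between 2.27 and 2.55. These values do not settle whether the material was whole epidermis or T cells. In bulk samples fewer cells of a type and less RNA per cell cannot be told apart.

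A first replicate exists in all 5 groups, and these 5 samples (numbered 1) did not resemble the remaining 7. The SD over all probe sets was between 1.55 and 1.85 in them, and between 2.19 and 2.30 in the ones numbered 2 to 4. The median was between 4.25 and 4.32 in the samples numbered 1, and between 3.94 and 4.15 in the others. The values as given thus did not share one distribution across samples. What the number stands for is not given. Differences are therefore also given within the pair numbered 1 and within the samples numbered 2 to 4 for the members described in detail, and the plots show both for all members.

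No enzyme of either pathway passed the test at 2 h. In limma's fit over all probe sets with Benjamini-Hochberg adjustment and a threshold of 0.05, 0 of the 43 probe sets were called, beside 0.241% of all 1246. With the replicate number as a block it was again 0, beside 1.36% of all. At an unadjusted p under 0.05 there were 3 members (6.98% of the 43), beside 4.65% of all. Hs3st6 and Extl1 were lower (4.65% of members), beside 2.25%, and Hs3st1 higher (2.33%), beside 2.41%. With the block there were 9 members (20.9%), beside 13.8% of all. Of these 7 were lower (16.3% of members), beside 8.59%, and 2 higher (4.65%), beside 5.22%. Where only a count of members stands beside a share of all probe sets, 1 member is 2.33% of the 43. In the samples numbered 2 to 4 alone 0 members passed, beside 3.05% of all. The lowest and the highest estimate both belonged to heparan 3-O-sulfotransferases, enzymes that add a rare sulfate late in heparan sulfate assembly: Hs3st6 was at a log2 difference of -1.05 and Hs3st1 at 0.86.

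Hs3st6 had log2 values of 6.97, 8.15, 7.94 and 7.66 in the 2 h samples numbered 1 to 4, against 9.29, 8.89, 8.57 and 8.17 in the non-wounded samples of the same numbers. The groups did not overlap, though the highest 2 h value was just under the lowest non-wounded one. The 2 h mean was 7.68 ± 0.52 and the non-wounded mean 8.73 ± 0.47 (SD, n = 4 each), a difference of -1.05 ± 0.37 (SE), or 2.07-fold lower at 2 h (limma adjusted p = 0.707). The blocked fit gave an adjusted p of 0.174. Most of the size came from the pair numbered 1, at -2.32, while the samples numbered 2 to 4 gave -0.62. Under array weights, which let samples with more scatter count less, Hs3st6 was at -0.60 and passed (limma adjusted p = 0.0363). In that fit 4 members passed (9.3% of the 43), beside 10.4% of all probe sets. All 4 were lower, beside 5.62% of all. The other 3 were Hpse, which cleaves heparan sulfate (-0.56, limma adjusted p = 0.0153), Ndst2 (-0.46, 0.029) and the chondroitin 6-O-sulfotransferase Chst3 (-0.55, 0.0499). Ndst2 is an N-deacetylase and N-sulfotransferase that heparin of mast cells depends on. Without weights, Hpse and Ndst2 were higher at 2 h within the pair numbered 1, at 0.20 and 0.24. In the samples numbered 2 to 4 they were lower, at -0.43 and -0.36.

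Groups that did not overlap at 2 h and lay lower were found for 2 members, Hs3st6 and the linker galactosyltransferase B4galt7, beside 2.73% of all probe sets. B4galt7 lay between 4.85 and 5.02 at 2 h and between 5.02 and 5.23 in non-wounded samples, a narrow range. No member lay wholly higher at 2 h, beside 2.01% of all probe sets.

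Hs3st1, the 3-O-sulfotransferase known for making the antithrombin-binding site of heparin, ran the other way. It had 4.85, 4.17, 4.49 and 5.43 at 2 h, against 4.51, 4.13, 3.64 and 3.22 in non-wounded samples. The groups overlapped, but each 2 h sample lay above the non-wounded sample of its number. The difference was 0.86 ± 0.34 (SE), with a limma adjusted p of 0.852 and 0.282 with the block. Here the samples numbered 2 to 4 gave the larger difference, 1.03, and the pair numbered 1 gave 0.34. Most of the 1.03 came from the pair numbered 4, at 2.21, while the pairs numbered 2 and 3 were at 0.046 and 0.84.

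Of the other 3-O-sulfotransferases, Hs3st2 had a value of 5.54 in the 2 h sample numbered 1 and of 3.72 to 3.87 in the other 2 h samples, against 4.33 in the non-wounded sample numbered 1 and 3.50 to 3.61 in the other non-wounded ones. Its difference of 0.46 ± 0.47 (SE) thus rested on the pair numbered 1, at 1.20, and was 0.21 in the rest. Hs3st3a1, Hs3st3b1 and Hs3st5 were at -0.0093, 0.05 and 0.06, and each stayed under 3.85 in every sample.

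**Figure D1:**
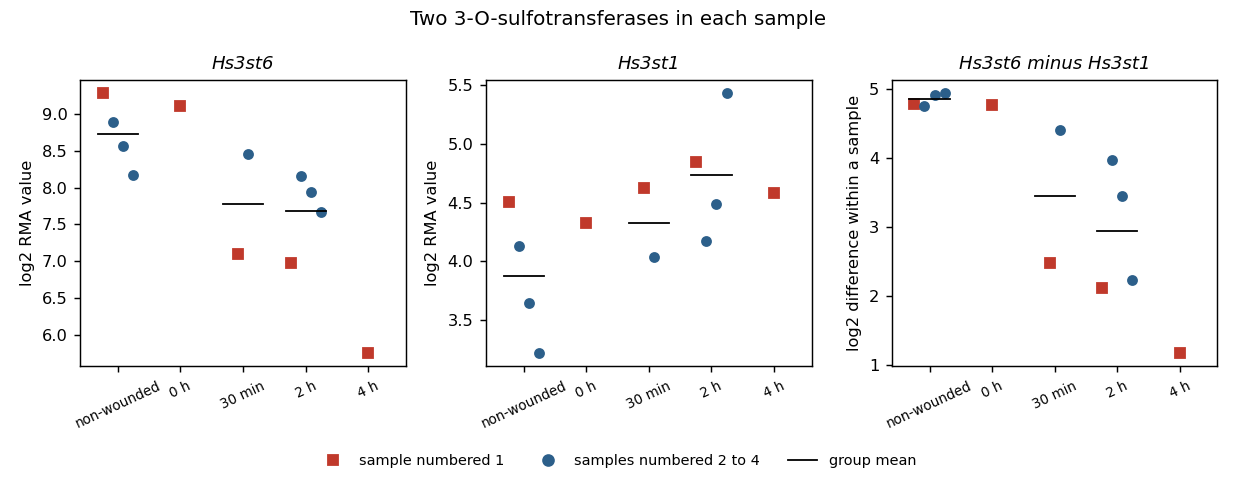
Log2 RMA values of Hs3st6 (left) and Hs3st1 (middle) and the difference between them within each sample (right), by group; squares are the samples numbered 1, circles those numbered 2 to 4, and black lines are group means where a group has more than 1 sample. Hs3st6 is lowest in the single 4 h sample, at 5.75, and the difference between the 2 genes lies between 4.76 and 4.95 in all 4 non-wounded samples and between 2.12 and 3.98 at 2 h; the pair holds the lowest and the highest 2 h estimate and was chosen for that.

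The 5 linker enzymes had estimates below 0 at 2 h without passing. Xylt1, which attaches the xylose, was at -0.20, with -1.10 in the pair numbered 1 and 0.10 in the samples numbered 2 to 4. Xylt2, the second xylosyltransferase, was at -0.49, with -0.90 and -0.36 in the same split, and ran from -0.66 to -0.24 with 1 sample left out. The galactosyltransferases B4galt7 and B3galt6 were at -0.19 and -0.36, and B3gat3, which adds the closing glucuronic acid, at -0.39. B3galt6 lay between 4.08 and 4.28 at 2 h and between 4.23 and 4.99 in non-wounded samples. The median was -0.36, beside 0.025 over all probe sets and -0.10 over those with a mean of at least 4, a level that all of these but Xylt1 reached.

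The enzymes that start and extend heparan chains were also all below 0, but only 3 of 5 were so with repeated quantile normalization. Extl1, a glucosaminyltransferase of the exostosin family, had 6.29, 6.81, 6.60 and 7.34 at 2 h, against 7.14, 8.04, 7.24 and 7.30 in non-wounded samples. The groups overlapped through the 2 h sample numbered 4, and the difference was -0.67 ± 0.29 (SE; limma adjusted p = 0.932, or 0.17 with the block). It was similar within both kinds of sample, at -0.85 for the pair numbered 1 and -0.61 for the rest. Extl2, whose enzyme can cap the linker and stop a chain, was at -0.56, with -1.06 in the pair numbered 1 and -0.40 in the rest. The chain polymerase Ext1 was at -0.0025, with -0.88 in the pair numbered 1 and 0.29 in the rest. Its partner Ext2 was at -0.41, with -1.07 and -0.20, and Extl3, which adds the first N-acetylglucosamine, at -0.16, with -0.41 and -0.082.

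In the steps that modify the heparan chain, the estimates were smaller apart from the 3-O-sulfotransferases. Glce, the epimerase that turns glucuronic into iduronic acid, had 5.78, 7.96, 7.88 and 8.12 at 2 h, against 5.61, 8.18, 8.11 and 7.89 in non-wounded samples. The samples numbered 1 of both groups lay far below the rest, and the difference was -0.011 ± 0.73 (SE; limma adjusted p = 0.998, or 0.985 with the block). Without them it was -0.074. The N-deacetylases and N-sulfotransferases Ndst1, Ndst2, Ndst3 and Ndst4 were at -0.24, -0.21, 0.11 and -0.0165 (Ndst1 with 0.43 in the pair numbered 1 and -0.46 in the rest), the 2-O-sulfotransferase Hs2st1 at -0.17, and the 6-O-sulfotransferases Hs6st1, Hs6st2 and Hs6st3 at 0.07, 0.11 and 0.19 (Hs6st1 with -0.57 and 0.29 in that split). Outside the cell, the endosulfatases Sulf1 and Sulf2 remove 6-O-sulfates and were at 0.19 and -0.063. Hpse was at -0.27, and Hpse2, a relative that lacks its activity and inhibits it, at 0.14.

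In the chondroitin branch Chpf had the estimate nearest 0 of all members. Chpf, the chondroitin polymerizing factor, had 6.18, 6.10, 5.91 and 6.55 at 2 h, against 6.31, 6.58, 6.10 and 5.75 in non-wounded samples. The means were 6.18 ± 0.27 and 6.18 ± 0.35 (SD, n = 4 each), and the difference was 0.0003 ± 0.23 (SE; limma adjusted p = 0.999). Csgalnact1, which adds the first N-acetylgalactosamine, had 6.32, 6.47, 6.86 and 7.35 at 2 h, against 6.43, 6.998, 6.90 and 7.02 in non-wounded samples, at -0.088 ± 0.32 (SE; limma adjusted p = 0.998). The polymerase Chsy1 was at 0.37. Its samples numbered 1 were low in both groups, at 3.84 at 2 h and 3.88 in the non-wounded one. In the samples numbered 2 to 4 it had 6.44, 6.48 and 6.41 at 2 h, against 6.05, 6.05 and 5.72, higher in each, and had the smallest adjusted p of any member in the fit of these samples alone (limma, 0.074). Csgalnact2 and Chsy3 were at -0.037 and 0.06.

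Among the sulfotransferases of chondroitin and dermatan sulfate, Chst3 had 4.34, 6.32, 6.45 and 6.47 at 2 h, against 6.06, 6.48, 6.97 and 7.26 in non-wounded samples. Each 2 h sample lay below the non-wounded sample of its number, and the difference was -0.80 ± 0.51 (SE; limma adjusted p = 0.998, or 0.17 with the block), with -1.72 in the pair numbered 1 and -0.49 in the rest. The 4-O-sulfotransferases Chst11 and Chst12 were at 0.15 and -0.47 (Chst12 with -1.33 in the pair numbered 1 and -0.18 in the rest), the second 6-O-sulfotransferase Chst7 at -0.022, and Chst15, which adds a further sulfate to 4-sulfated chains, at -0.24. Of the dermatan enzymes, the epimerase Dsel was at -0.03 and the 4-O-sulfotransferase Chst14 at -0.26, with -0.96 in the pair numbered 1 and -0.028 in the rest.

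Ust, which sulfates the uronic acid of these chains, was read by 2 probe sets. The one with the suffix s_at had 8.64, 8.99, 8.95 and 9.17 at 2 h, against 9.40, 9.03, 9.25 and 9.74 in non-wounded samples, at -0.42 ± 0.20 (SE; limma adjusted p = 0.998, or 0.284 with the block). The one with the suffix x_at had 6.46, 7.35, 7.36 and 7.66, against 6.24, 7.67, 7.54 and 7.53, at -0.039 ± 0.36 (0.998). In Affymetrix naming x marks probes that may also bind other transcripts, and the 2 probe sets disagreed in size. Whether the s_at probe set binds Ust alone was not tested.

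**Figure D2:**
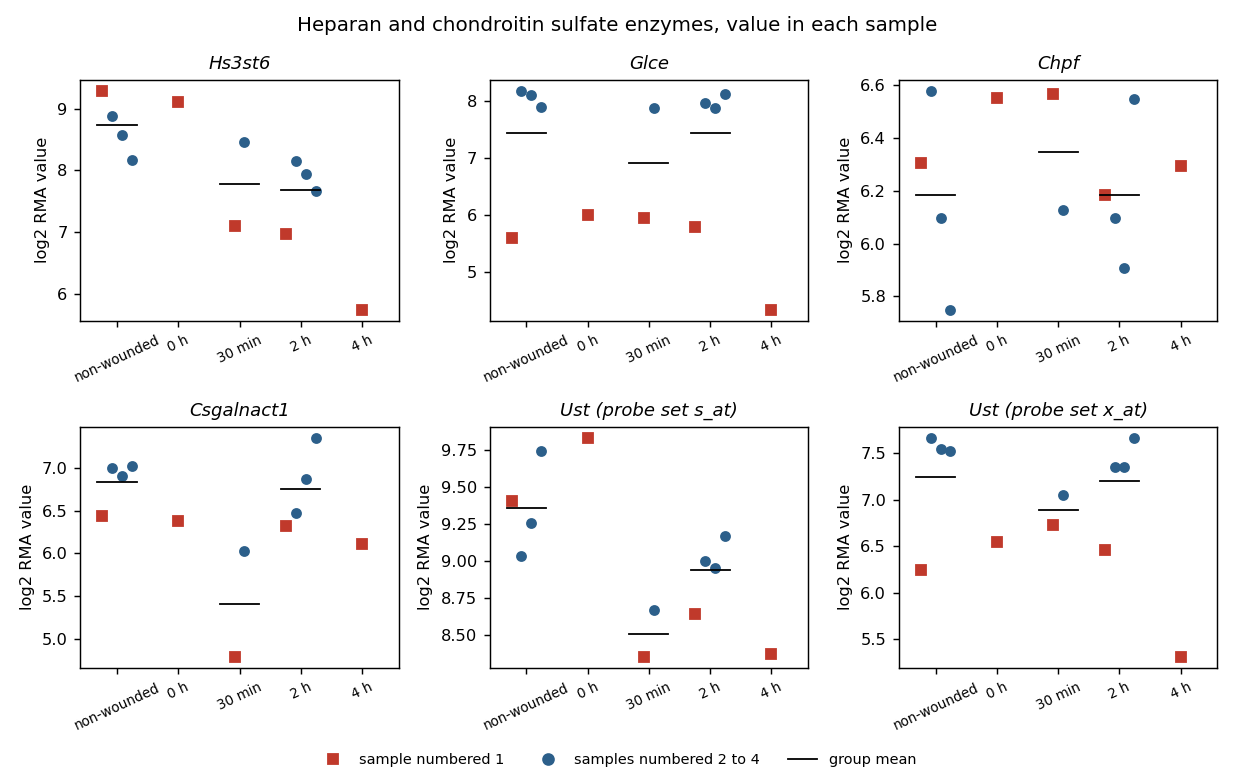
Log2 RMA values of Hs3st6, Glce, Chpf, Csgalnact1 and both probe sets of Ust in each of the 12 samples, by group; squares are the samples numbered 1, circles those numbered 2 to 4, and black lines are group means where a group has more than 1 sample. Glce and the x_at probe set of Ust are low in every sample numbered 1, while Csgalnact1 is lowest in the 2 samples at 30 min, at 4.79 and 6.02.

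Counted over the list, 29 of 43 probe sets were lower and 14 higher at 2 h, with a median of -0.039, beside 567 lower and 679 higher of all 1246 and a median of 0.025. Lower within both the pair numbered 1 and the samples numbered 2 to 4 were 17 members (39.5%), beside 28.3% of all. Higher within both were 7 members (16.3%), beside 32% of all probe sets. Lower in all 4 same-numbered pairs were 8 members (18.6%), beside 11.6% of all. Among them were Hs3st6, Chst3, Xylt2, Chst12 and Extl3. Higher in all 4 pairs were Hs3st1 and Hs3st2 (4.65%), beside 13.4% of all. The brighter members, with a mean of at least 4 over all samples, were lower in 24 of 30 cases (80%). Of all probe sets of that brightness, 408 of 674 (60.5%) were lower. After scaling all samples to a common median and SD, 32 of 43 members were lower, beside 789 of 1246, with samples centred on their medians 34, beside 749, and with repeated quantile normalization 26, beside 662. The direction of the list was therefore read only beside that of all probe sets.

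**Figure D3:**
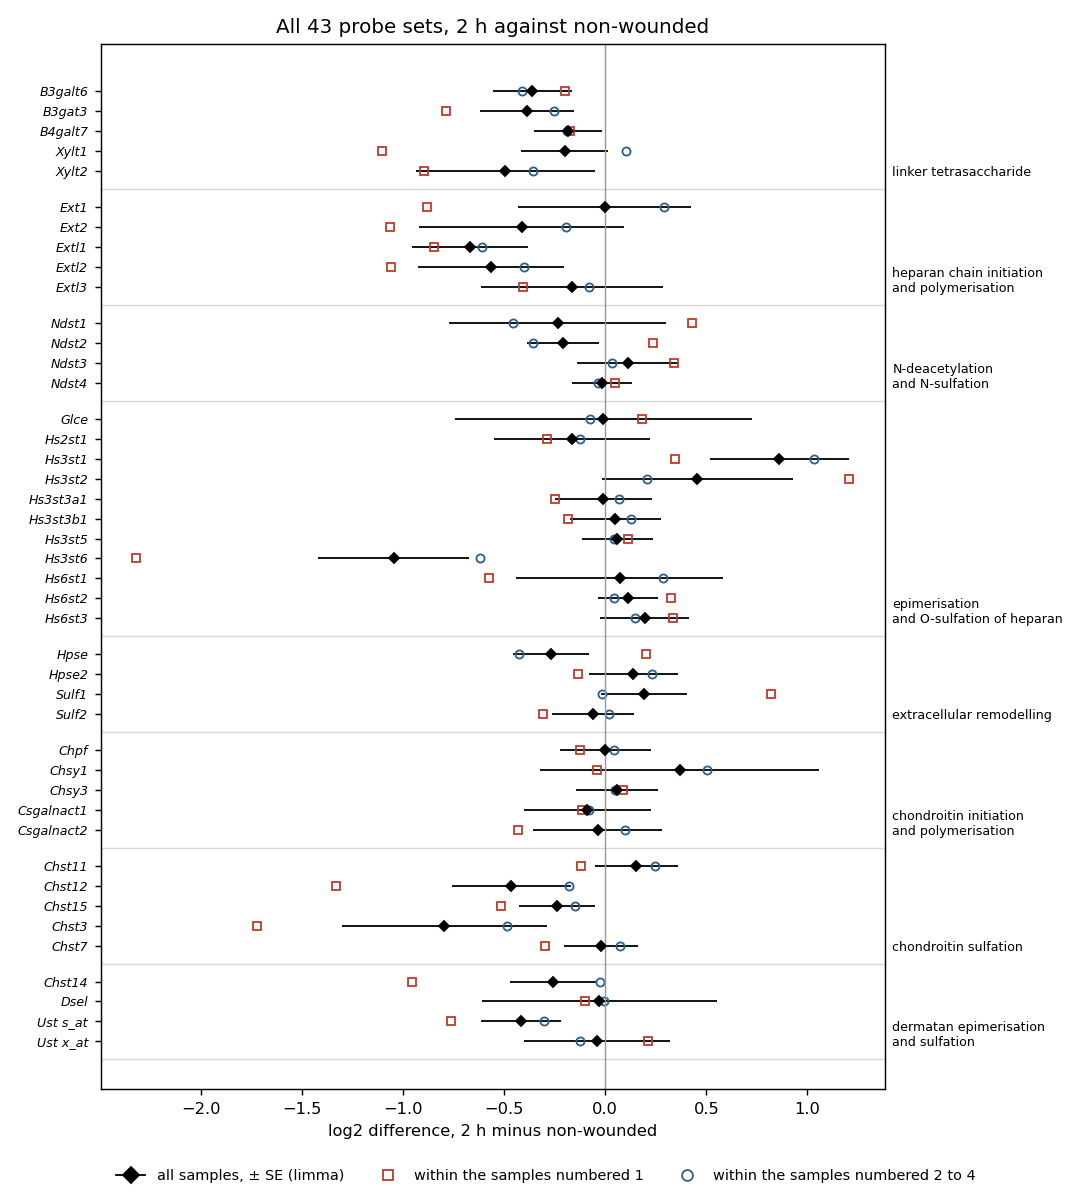
Log2 difference, 2 h minus non-wounded, of all 43 probe sets in pathway order; black diamonds with bars are the limma estimates from all samples with their SE, open squares the difference within the samples numbered 1 and open circles that within the samples numbered 2 to 4. Hs3st6 is at -1.05, the lowest estimate, and Hs3st1 at 0.86, the highest.

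At 30 min the chondroitin-starting enzyme Csgalnact1 had the lowest estimate, 2.69-fold below the non-wounded mean. No member passed in limma's fit, with or without the block, and 0% of all probe sets did. At an unadjusted p under 0.05 there were 4 members (Csgalnact1, Ust, Hpse and Extl1; 9.3% of the 43), beside 5.06% of all. All 4 were lower, beside 4.17%, and none higher, beside 0.883%. With the block there were 11 members (25.6%), beside 10.9% of all. Of these 10 were lower (23.3% of members), beside 8.03%, and 1 higher (Hs6st3, 2.33%), beside 2.89%. The 30 min group had 1 sample of each kind, and the same 4 non-wounded samples served here as at 2 h.

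Csgalnact1 had 4.79 and 6.02 in the 30 min samples numbered 1 and 2, against 6.43, 6.998, 6.90 and 7.02 in the non-wounded samples. Both lay below the non-wounded range. The difference was -1.43 ± 0.39 (SE; limma adjusted p = 0.735), and the blocked one -1.19 (0.432). It was -1.64 in the pair numbered 1 and -0.95 in the single 30 min sample numbered 2 against non-wounded samples 2 to 4.

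Ust had 8.35 and 8.66 at 30 min by the s_at probe set, against 9.40, 9.03, 9.25 and 9.74 in non-wounded samples. The groups did not overlap, and the difference was -0.85 ± 0.24 (SE; limma adjusted p = 0.735, or 0.432 with the block). After scaling all samples to a common median and SD it shrank to -0.26. The x_at probe set had 6.73 and 7.05, inside the non-wounded range of 6.24 to 7.67, at -0.36 ± 0.44 (0.783).

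Hpse had 4.21 and 4.47 at 30 min, against 4.71, 5.08, 5.29 and 4.77 in non-wounded samples. Its difference of -0.63 ± 0.23 (SE; limma adjusted p = 0.735) was about equal in the pair numbered 1, at -0.50, and in the rest, at -0.58. Extl1 had 6.30 and 6.95, against a non-wounded range of 7.14 to 8.04, at -0.81 ± 0.35 (0.735). It was -0.84 in the pair numbered 1 and -0.58 in the rest, and ran from -1.13 to -0.48 with 1 sample left out. B3galt6 had 3.83 and 4.20, against 4.23 to 4.99, at -0.52 ± 0.24 (0.735). It was -0.48 and -0.41 in the same split, and ran from -0.70 to -0.34 with 1 sample left out. These 3 and the 2 genes above made 5 members whose 30 min samples lay wholly below the non-wounded ones. They were 11.6% of the 43, beside 5.14% of all probe sets. Wholly above lay Hs6st3 and Sulf1 (4.65%), beside 2.49% of all. Hs6st3 had 3.904 and 2.830, against 2.697 to 2.826, and Sulf1 had 2.713 and 2.598, against 2.445 to 2.485. Their means over all samples were 3.08 and 2.60. Most probe sets with a mean under 4 were higher at 30 min, and the counts are given with the cell type markers.

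For several members the 30 min difference lay mostly in the sample numbered 1. Ext2 had 5.29 in that sample and 7.75 in the one numbered 2, against 7.40 to 8.003 in non-wounded samples. Xylt2 had 4.12 and 6.18, against 5.88 to 6.78, and Hs6st1 had 4.33 and 6.23, against 5.65 to 6.68. Sulf2 had 2.46 and 3.37, against 3.32 to 3.67. Hs3st6 had 7.10 and 8.45, against 8.17 to 9.29, with a difference of -2.19 in the pair numbered 1. It was -0.0905 in the 30 min sample numbered 2 against the mean of non-wounded samples 2 to 4. In the pair numbered 2 the differences were -0.43 for Hs3st6, -0.61 for Xylt2, -0.26 for Ext2, -0.25 for Hs6st1 and -0.024 for Sulf2. With the sample numbered 2 left out, 5 members passed (Csgalnact1, Ext2, Sulf2 and Xylt2 lower, Hs6st3 higher), beside 5.94% of all probe sets called and 2.65% called lower. That fit sets a lone sample of the narrower kind against 4 non-wounded samples, of which 1 is of that kind, and assumes that it varies like the other groups. In the samples numbered 2 to 4 alone no member passed, beside 0% of all.

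Glce had 5.95 and 7.88 at 30 min, near the non-wounded values of the same numbers (5.61 and 8.18). Its difference was -0.53 ± 0.90 (SE; limma adjusted p = 0.842) and 0.0305 with the block. Chpf had 6.57 and 6.13, against 6.31 and 6.58 in non-wounded samples 1 and 2, at 0.16 ± 0.28 (0.842). Over the list 28 members were lower and 15 higher at 30 min, with a median of -0.25, beside 576 lower and 670 higher of all 1246 and a median of 0.038. After scaling all samples to a common median and SD, 29 members were lower, beside 739 of all and a median of -0.088. The members with a mean of at least 4 were lower in 26 of 30 cases with a median of -0.44, beside 477 of 674 and -0.32 over all probe sets of that brightness. All 5 linker enzymes and all 5 chain-starting and chain-extending enzymes of heparan sulfate were below 0, with medians of -0.39 and -0.81. None of them passed the test. In the samples numbered 2 to 4 both medians were -0.20, and Xylt1 was at 0.025. With repeated quantile normalization 4 of 5 in each group were below 0.

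**Figure D4:**
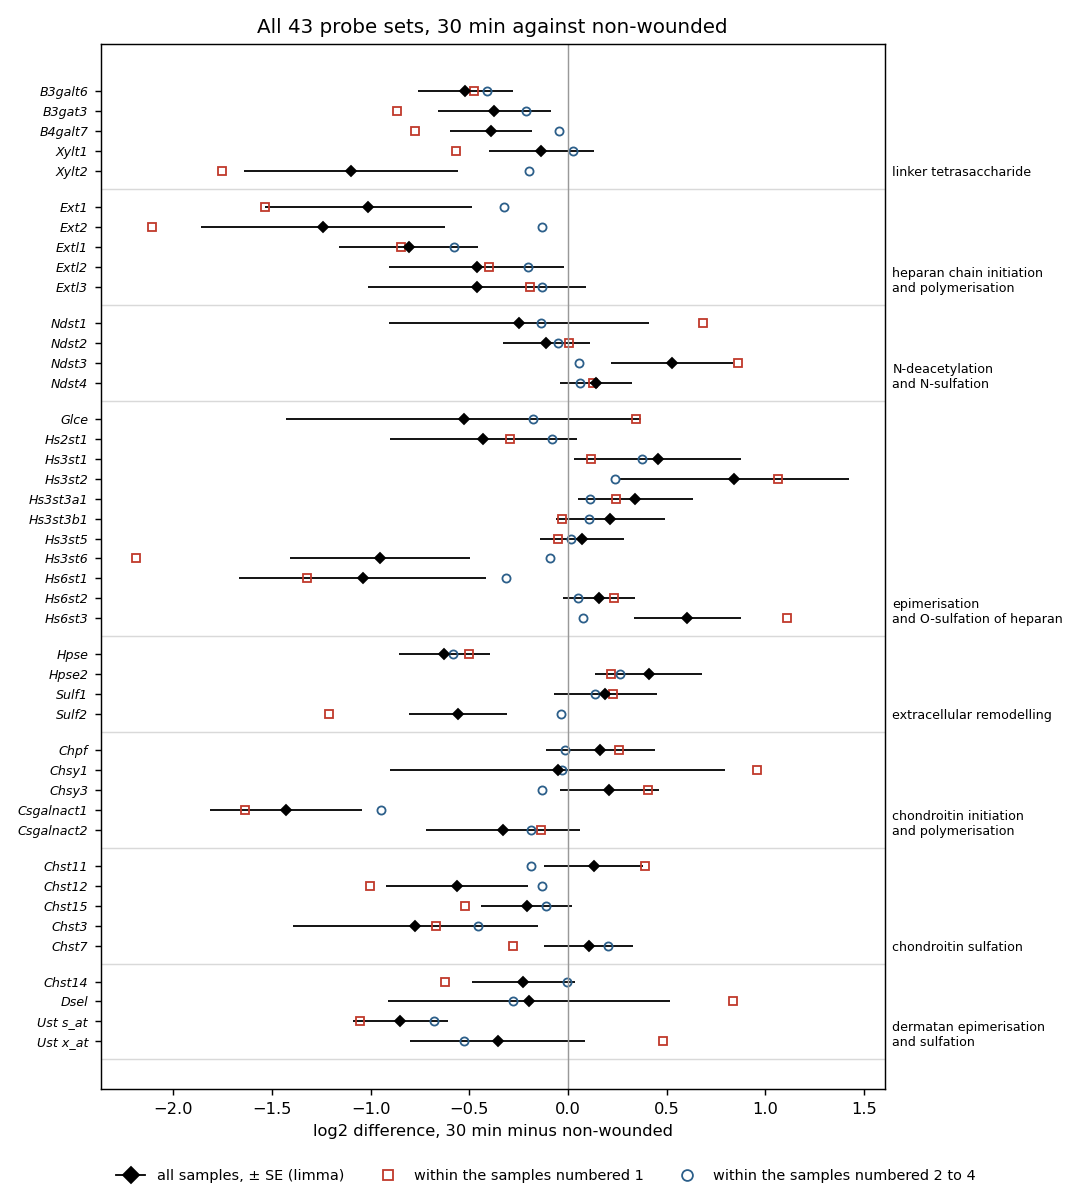
Log2 difference, 30 min minus non-wounded, of all 43 probe sets in pathway order; symbols are as in the plot of the 2 h differences, and the samples numbered 2 to 4 hold a single 30 min sample. Csgalnact1 is at -1.43 and low within both kinds of sample, whereas Ext2 is at -2.11 in the samples numbered 1 and -0.13 in the others.

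Between 2 h and 30 min, Csgalnact1 was the member that differed most, with 2 h values of 6.32 to 7.35 against 4.79 and 6.02 at 30 min. It lay wholly higher at 2 h, the only member to do so, beside 3.77% of all probe sets, and no member lay wholly lower, beside 1.69%. The difference was 1.34 ± 0.39 (SE; limma adjusted p = 0.621, or 0.418 with the block), with 1.52 in the pair numbered 1 and 0.87 in the rest. No member passed, with or without the block, beside 0% of all probe sets; at an unadjusted p under 0.05 there was 1 member, beside 2.17% of all. With the block there were 2, beside 5.38% of all, the second being Hs6st1 (0.74, limma adjusted p = 0.726). Hs3st6 was at -0.094 ± 0.46 (SE) between these times.

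The 0 h and 4 h samples had no replicate, and both are numbered 1. Hs3st6 had 9.29, 9.10, 7.10, 6.97 and 5.75 in the samples numbered 1 of the non-wounded, 0 h, 30 min, 2 h and 4 h groups. The 2 earliest were close together, and each later sample was lower. Over all probe sets the SD of these samples was 1.81, 1.85, 1.56, 1.59 and 1.55, so the later 3 also had the narrower range. Against the non-wounded sample numbered 1, Hs3st6 at 4 h was at -3.54, or -3.71 after scaling all samples to a common median and SD.

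At 4 h, 6 members lay 1 or more below the non-wounded sample numbered 1 on the log2 scale, beside 8.51% of all probe sets. They were Hs3st6, Chst12 (4.96, against 6.28), Glce (4.34, against 5.61), Xylt2 (4.70, against 5.88), Ust by the s_at probe set (8.37, against 9.40) and Chst3 (5.03, against 6.06). With that scaling the difference of Ust shrank to -0.47. Hs6st2 was the member higher by 1 or more (4.12, against 2.64), beside 3.29% of all. Set against the mean of the 4 non-wounded samples and outside their range, 12 members were lower, beside 17.3% of all, and 3 were higher, beside 6.18%. Csgalnact1 was at 6.11 and Chpf at 6.29, against 6.43 and 6.31 in the non-wounded sample numbered 1. At 0 h no member differed by 1 or more from that sample, beside 0.562% of all probe sets lower and 0.321% higher. Against the mean of the 4 non-wounded samples 4 members were lower (Csgalnact2, Dsel, Extl3 and Ndst1), beside 5.38% of all, and none higher, beside 0.963%.

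Genes that feed the pathway, carry the chains or break them down gave no call either. Of 8 genes of sulfate donor and sugar nucleotide supply, 5 were lower and 3 higher at 2 h. The Golgi nucleotide sugar transporter Slc35d2 averaged 4.87 at 2 h and 5.61 in non-wounded samples (-0.74 ± 0.44, SE; limma adjusted p = 0.998, or 0.0979 with the block), with -0.91 in the pair numbered 1 and -0.69 in the rest. Of 27 core proteins, 9 were lower and 18 higher at 2 h, or 13 and 14 after scaling all samples to a common median and SD. Cd44, a hyaluronan receptor that can carry both chains, averaged 8.77 at 2 h and 7.76 in non-wounded samples (1.02 ± 0.96, SE; limma adjusted p = 0.998, or 0.122 with the block), with 1.18 and 0.96 in the same split. Dcn, a dermal proteoglycan, was at 0.60 and Srgn, the core protein of secretory granules, at 0.49 (limma adjusted p = 0.998 for both, or 0.238 and 0.31 with the block). Both were below 0 in the pair numbered 1, at -0.11 and -0.17. Of 10 lysosomal enzymes of chain breakdown, 8 were lower, among them the glucuronidase Gusb at -0.56 ± 0.80 (SE) and the sulfatase Arsb at -0.35 ± 0.29 (SE; limma adjusted p = 0.998 for both, or 0.227 and 0.306 with the block). At 30 min the core proteins split into 15 lower and 12 higher, or 9 and 18 with the block. The glypican Gpc1 averaged 6.93 at 30 min and 8.36 in non-wounded samples (-1.44, limma adjusted p = 0.735), with -2.41 in the pair numbered 1 and -0.26 in the rest. Col18a1, a basement membrane collagen with heparan chains, was at -0.87 (limma adjusted p = 0.735), with -1.62 in the pair numbered 1 and -0.42 in the rest. The syndecan Sdc2 was at -0.66 (0.735), with -0.66 and -0.37 in the same split. Only with the block did Sdc1, Gpc2, the supply gene Slc35b3 and the lysosomal enzyme Galns reach an unadjusted p under 0.05. In that fit they were at -0.79, -0.52, -0.67 and -0.51 (limma adjusted p = 0.432, 0.432, 0.432 and 0.446).

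Markers of other cell types are given beside these values, and none passed the test. Of the dermal fibroblast markers, 5 of 8 were measured and all 5 were higher at 2 h, with a mean log2 value per sample of 3.72 to 4.10 at 2 h and 3.41 to 3.79 in non-wounded samples. At 30 min all 5 were higher as well, with 3.697 and 4.29. The 4 neutrophil markers measured were all higher at 2 h, at 4.83 to 5.23 against 4.45 to 5.11 in non-wounded samples, and 2 of 4 were higher at 30 min. The 3 endothelial markers measured were all higher at both times, at 3.08 to 3.61 at 2 h against 2.95 to 3.25 in non-wounded samples. Of these, 3 of the 5 fibroblast markers, 2 of the 4 neutrophil markers and all 3 endothelial markers had a mean under 4. Of all probe sets that dim, 413 of 572 were higher at 2 h and 473 of 572 at 30 min. The T cell markers split evenly at both times (3 of 6 higher). Of the monocyte and macrophage markers 1 of 3 was higher at each time, and of the Langerhans cell markers 3 of 4 at 2 h and 1 of 4 at 30 min. Lgals7, the single keratinocyte marker measured, was lower at both times, and lay at 10.997 and 12.08 at 30 min. Kit, the single mast cell marker measured, lay between 3.34 and 4.22 at 2 h and between 3.27 and 4.08 in non-wounded samples. The part of these cells in the enzyme values was not tested.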

How the data were processed

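RNA extracted with Trizol was made into biotin-labelled cRNA for single-colour Affymetrix arrays, per the labels' protocols. The authors deposited 1 table of log2 values for 1246 probe sets in 12 samples, made with RMA per the submitters' processing notes. The sources used here name no array, software version, filter or batch. Every share of all probe sets refers to these 1246 and not to all mouse genes. Detection calls were not part of the table, and precision depends on how many arrays each group has.

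Probe set accessions were matched, without version, to RefSeq genes of GRCm38.p6, for names only: 963 probe sets matched 1 symbol, 0 several and 283 none. Titles gave groups and replicate numbers. Whether replicates are separate mice is not stated, so the p-values reflect only how far these samples scatter, and that scatter may be technical.

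All 12 samples entered a fit of group means with lmFit and eBayes of limma 3.58.1 under R 4.3.3. Benjamini-Hochberg adjustment was over all 1246 probe sets. In simulated data with independent noise, the fit was required only to recover the median size of an added change, which does not test the calls made here. Deviations of same-numbered 2 h and non-wounded samples from their group means correlated at 0.796, 0.449, 0.651 and 0.297. All were above 0.1, the limit set for giving blocked values. The samples numbered 1 differed from the rest in each group, which can raise these correlations by itself. Samples of different numbers were not compared, so the correlations cannot show that the numbers 2 to 4 mark pairs. Members and lists were chosen with earlier results of these data known. Values are given for the 5 named members Hs3st6, Glce, Chpf, Csgalnact1 and Ust, and for 12 others with an unadjusted p under 0.05 in either fit. B4galt7, Chsy1, Ndst2, Sulf1, Chst12 and Hs6st2 were singled out after their values were seen. Alternatives were other scalings, a filter on dim probe sets, fixed and random replicate blocks, array weights, an intensity trend, fewer groups and leaving out samples. Both scalings combined with the block were added after the data were seen. Figures used matplotlib 3.10.9.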

Additional observations from a re-analysis of the deposited data

Results flagged for a closer look

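In 8 of the 36 groups of 4 values tested for the members given by name, 1 sample lay far from the other 3, by Dixon's ratio of its gap to the group's range. Chance flags about 1 in 20 independent groups. The groups here come from the same samples, and 12 of the 17 genes were chosen by their p-values in these data. The count of 8 therefore cannot be judged against that rate. All 8 here were samples numbered 1. At 2 h that sample was at 6.33 for Ext2 (others 7.67 to 7.71), 5.78 for Glce (7.88 to 8.12), 5.54 for Hs3st2 (3.72 to 3.87), 5.08 for Hs6st1 (6.72 to 6.89) and 4.34 for Chst3 (6.32 to 6.47). In the non-wounded group it was at 5.61 for Glce (others 7.89 to 8.18), 4.33 for Hs3st2 (3.50 to 3.61) and 6.24 for the x_at probe set of Ust (7.53 to 7.67).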

How the results depend on the processing

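The count of members called was 0 in each replicated comparison. It became 4 at 2 h with array weights, and at 30 min it ran from 0 to 5 with 1 sample left out, 5 being without the 30 min sample numbered 2. It stayed at 0 under every other alternative run, the replicate block included. Over all probe sets, the calls at 2 h were 3 without the block, 17 with it, 130 with array weights and 0 with samples centred on their medians. They were 7 with quantile normalization, 8 with an intensity trend, 15 with a random block and 38 in the samples numbered 2 to 4 alone. With the block they were 13 after quantile normalization and 10 after the scaling described next, both chosen after seeing the data, and with 1 sample left out they ran from 0 to 11. At 30 min the calls were 0 except for 74 without the 30 min sample numbered 2. Between 2 h and 30 min they ran from 0 to 3, or 9 without the 2 h sample numbered 1. The count past 1 on the log2 scale was 15 at 4 h and 4 at 0 h, and became 7 and 0 against the non-wounded sample numbered 1. Signs turned for members near 0. At 2 h Chpf was at -0.084 with samples centred on their medians and from -0.14 to 0.13 with 1 sample left out. With quantile normalization, with or without the block, Csgalnact1 was at 0.13, Glce at 0.14 and the x_at probe set of Ust at 0.19. With samples scaled to one median and SD, with or without the block, Glce was at 0.042 and that Ust probe set at 0.036. With 1 sample left out, these 3 ran from -0.29 to 0.055, -0.62 to 0.54 and -0.37 to 0.21. At 30 min Chpf was at -0.016 in the samples numbered 2 to 4 alone and from -0.057 to 0.38 with 1 sample left out. Glce was at 0.0305 with the block, 0.30 with quantile normalization and the block, 0.20 with the scaling and the block, and from -1.50 to 0.44 with 1 sample left out. The x_at probe set of Ust was at 0.22 and 0.24 with quantile normalization without and with the block, and at 0.0071 and 0.18 with the scaling. The cause was not tested.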

Other observations

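The log2 difference between Hs3st6 and Hs3st1 within a sample cancels any shift shared by the whole array. The pair was chosen after its values were seen, as the lowest and the highest estimate at 2 h, so a smaller difference at 2 h follows from the choice and no test is given. It was 2.12, 3.98, 3.46 and 2.23 in the 2 h samples numbered 1 to 4, against 4.78, 4.76, 4.93 and 4.95 in the non-wounded samples. It was 2.48 and 4.42 in the 30 min samples numbered 1 and 2, 4.77 at 0 h and 1.17 at 4 h. After scaling all samples to a common median and SD it ran from 2.03 to 3.56 at 2 h and from 4.28 to 5.29 in non-wounded samples.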
